A study of Mus musculus with 6 samples.

Results

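Fibronectin, 6 matricellular proteins and 3 small leucine-rich proteoglycans were followed in mouse satellite cells with and without conditional deletion of Hira. The 10 genes, Fn1, Thbs1, Thbs2, Tnc, Postn, Sparc, Spp1, Bgn, Dcn and Lum, were taken by symbol from the 55536 annotated genes. The rule that lists them uses no measured value, but it was written with earlier results of these data known. All 10 were found in all 6 samples' count files, and 9 of them passed the filter on low counts. RNA was sequenced from satellite cells, muscle stem cells that lie under the basal lamina of the myofiber and rebuild muscle after injury. The 3 control samples were Pax7CreErt2;Hira fl/+ by the study's methods and WT by the sample labels, and the 3 cKO samples were Pax7CreErt2;Hira fl/fl. All came from adult male C57BL/6J mice, 8 to 12 weeks old, that were fed tamoxifen for 2 weeks, and the tibialis anterior was injured with BaCl2. Cells were sorted 5 days after injury as CD34+ ITGA7+ and CD45- TER119- SCA1-, then cultured for 48 h in high-serum medium on Matrigel. Pax7CreErt2 deletes in Pax7-expressing cells only, and their progeny inherit the deletion. Cells of the muscle outside this lineage keep Hira in both groups, and the controls can lose 1 Hira allele. The samples are described as independent, but no source used here states that each came from a separate mouse, so p-values measure the spread between these samples, which may be technical.

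Matricellular proteins are secreted into the extracellular matrix but do little to build it. They bind collagens, growth factors, proteases and integrins, and they change how a cell adheres, migrates and responds to signals; many are produced at low levels in resting tissue and at high levels after injury. Fibronectin is a fibril-forming adhesive glycoprotein laid down early in wound matrix, and in regenerating muscle it surrounds activated satellite cells. Small leucine-rich proteoglycans carry a short core protein of leucine-rich repeats, in several members with chondroitin or dermatan sulfate chains, and they bind collagen fibrils and growth factors of the TGF-beta family.

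Of the 9 genes that could be tested, 8 were upregulated in cKO and 1, Spp1, was downregulated (adjusted p under 0.05, edgeR's quasi-likelihood test, p-values adjusted by Benjamini and Hochberg over 22404 genes). Among all genes tested, 9.38% were called higher and 6.46% lower. The cKO samples lay entirely above the control samples for 9 of the 10 genes, Lum included, and entirely below for Spp1; such a separation was found upward for 20.3% and downward for 11.1% of all genes tested. Abundant genes are called more easily, and among the 4394 genes with a mean of at least 50 CPM (counts scaled to the total count of their sample) 26.1% were called in either direction. This set holds 8 of the 9 tested members, all but Dcn, and all 8 were called. The median log2 fold change of the 9 genes was 0.33, against -0.0011 for all genes tested, and their range was -0.38 for Spp1 to 1.10 for Dcn. Together, the 10 genes held 0.712%, 0.726% and 0.725% of all counts in control replicates 1 to 3 and 0.903%, 1.02% and 0.911% in cKO replicates 1 to 3. In bulk samples, more cells that express a gene and more RNA per cell cannot be told apart.

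**Figure D1:**
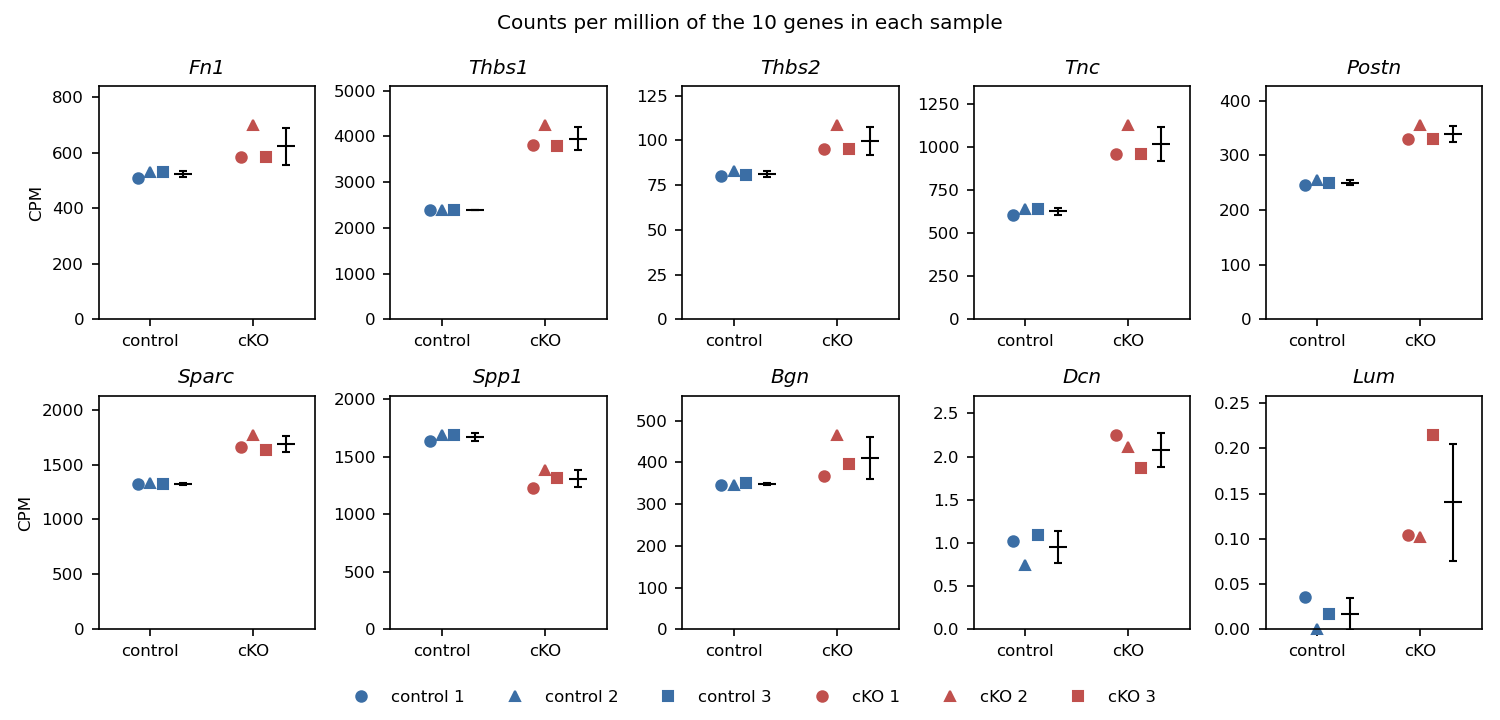
Level of each of the 10 genes (y axes in CPM, each from 0 with its own range) in the 3 control samples (blue) and the 3 cKO samples (red); marker shape gives the replicate number, and the black bars beside the points show mean ± SD, n = 3, drawn only above 0 for Lum. The cKO points lie above the control points in every panel except Spp1, where they lie below, and the cKO triangle (replicate 2) is the highest cKO point in 8 panels.

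Between 47944477 and 63323577 counts per sample lay on genes, and replicates varied by 3.92% (edgeR's common biological coefficient of variation). For Hira, the 3 controls held 375, 348 and 341 counts and the 3 cKO libraries 161, 293 and 272 counts; edgeR's estimate was -0.43 on the log2 scale (SE 0.12, adjusted p = 0.0237). In CPM, Hira stood at 5.89 ± 0.640 in control and 4.39 ± 0.898 in cKO (SD, n = 3). Without control replicate 1 the change was -0.34 (adjusted p = 0.104), and 44.7% of Hira's exonic bases overlap Gm28539 on the same strand. For satellite cells of cKO mice, the paper reports a sharp decrease of Hira RNA by RT-qPCR and no detected HIRA protein by immunostaining. Over all genes, 2101 were called higher and 1448 lower in cKO, so that 59.2% of the calls were upward; scaling by total counts alone gave 2462 and 1057, or 70.0% upward. The libraries held the markers of satellite cells and myoblasts, with Pax7 at 39.3 CPM, Myf5 at 68.5 CPM, Myod1 at 773 CPM and Myog at 2112 CPM in control.

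Levels can be compared between genes only per length, here as CPM per kilobase of annotated exon. On this scale Spp1 was the most abundant of the 10 genes in control, at 1014 ± 20.0 (SD, n = 3). Thbs1 followed at 393 ± 0.632, Sparc at 349.5 ± 1.53 and Tnc at 80.6 ± 2.58. Bgn stood at 57.0 ± 0.349, Fn1 at 44.8 ± 0.994, Postn at 28.7 ± 0.534 and Thbs2 at 11.6 ± 0.234. Each step down this order exceeded the spread between control samples. Dcn, at 0.163 ± 0.0318, and Lum, at 0.00703 ± 0.00723, lay far below the rest. Among 22028 protein-coding genes, the mean over all samples ranked Spp1 15, Thbs1 30, Sparc 46 and Tnc 268, whereas Dcn ranked 12513 and Lum 15156. The order of the 10 genes was the same in all 6 samples, but the distance between the leading pair shrank: the per-length level of Spp1 was 2.52, 2.61 and 2.60 times that of Thbs1 in the control samples and 1.19, 1.20 and 1.28 times in the cKO samples. In cKO, Bgn (67.2 ± 8.35) and Fn1 (53.4 ± 5.74) were the neighbours closest to each other relative to their spread.

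Promoter sequences are shown for Postn, Tnc and Spp1, since these 3 members rose or fell clearly and their RefSeq start lies within 50 bases of the GENCODE start of the gene. RefSeq promoter entries (GRCm38.p6) existed for 6 of the 10 genes, and 5 of them met this distance. The entry of Sparc did not, as its RefSeq start lies 3103 bases from the GENCODE start. The 250 bases that precede each start site are given 5′ to 3′ on the strand of the gene, with matches to TATAAA in capitals. TATAAA is the core sequence of a TATA box, but it was matched at any position in the window. They lie at chr3:54360857-54361106 on the plus strand (Postn), chr4:64047016-64047265 on the minus strand (Tnc) and chr5:104434861-104435110 on the plus strand (Spp1).
Postn: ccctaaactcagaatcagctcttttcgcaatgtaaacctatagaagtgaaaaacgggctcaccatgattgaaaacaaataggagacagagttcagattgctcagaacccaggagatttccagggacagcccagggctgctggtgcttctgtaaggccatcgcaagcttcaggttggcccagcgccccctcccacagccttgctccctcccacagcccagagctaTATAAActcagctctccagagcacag
Tnc: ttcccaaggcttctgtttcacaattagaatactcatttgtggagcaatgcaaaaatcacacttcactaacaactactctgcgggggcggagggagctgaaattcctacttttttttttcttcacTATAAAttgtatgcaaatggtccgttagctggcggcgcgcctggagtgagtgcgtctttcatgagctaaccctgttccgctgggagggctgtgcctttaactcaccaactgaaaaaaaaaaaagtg
Spp1: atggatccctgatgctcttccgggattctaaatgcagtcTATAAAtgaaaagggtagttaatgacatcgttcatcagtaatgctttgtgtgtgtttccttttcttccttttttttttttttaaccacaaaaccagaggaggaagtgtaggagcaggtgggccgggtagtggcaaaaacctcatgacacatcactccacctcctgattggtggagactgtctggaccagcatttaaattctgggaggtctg
TATAAA begins 26 bases before the start site in Postn, 126 bases before it in Tnc and 211 bases before it in Spp1. Of the windows not shown, that of Thbs2 held 1 match, 126 bases before the start, and those of Sparc and Bgn held 0. Whether any match acts as a TATA box was not tested. Searched on both strands, TATAAA occurs in 12.4% of the 32851 RefSeq promoter windows of this length. The AP-1 motif TGANTCA, present in 6.75% of all windows, and the TEAD motif GGAATG, present in 12.6%, had no match in the windows of Postn, Tnc, Thbs2, Spp1, Sparc and Bgn. The E-box CANNTG, to which MyoD-type factors bind, is found in 66.2% of all windows; it occurs 3 times in Tnc, once in Spp1 and not in Postn. These matches describe the letters of the windows only, and no binding was measured here.

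Fn1 (ENSMUSG00000026193, chromosome 1, 71585520 to 71653200, minus strand, mm10) encodes fibronectin, the ligand of the integrin of Itga5 and Itgb1 on myogenic cells. Its level was 511, 531 and 530.4 CPM in the control samples and 586, 701 and 585 CPM in the cKO samples. All 3 cKO samples were above the control samples, and cKO replicate 2 stood above the other two. The mean rose from 524 ± 11.6 to 624 ± 67.1 CPM (SD, n = 3), a log2 fold change of 0.23 (SE 0.05, 95% interval 0.12 to 0.34, adjusted p = 0.00714). Without cKO replicate 2 the rise was 0.14 (adjusted p = 0.0052), and with DESeq2 the adjusted p was 0.0713.

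Thrombospondins are large multidomain glycoproteins that bind CD36, CD47 and integrins. Thbs1 and Thbs2 form the trimeric subgroup that restrains blood vessel growth, and thrombospondin-1 can activate latent TGF-beta. Thbs1 (ENSMUSG00000040152, chromosome 2, 118111876 to 118127133, plus strand) had 134898, 151092 and 146885 counts in control and 182429, 251434 and 212148 counts in cKO. Scaled to CPM, control replicates 1 to 3 held 2386, 2386 and 2392, and cKO replicates 1 to 3 held 3805, 4251 and 3799.8. The control samples lay within 6.88 CPM of each other, and every cKO sample was at least 1407 CPM above them. This was the largest difference in CPM among the 10 genes, from 2388 ± 3.84 to 3952 ± 259 CPM (SD, n = 3), or 1.63-fold (log2 0.70, SE 0.04, adjusted p = 6.4e-09). Thbs2 (ENSMUSG00000023885, chromosome 17, 14665500 to 14694235, minus strand) stood at 79.8, 83.0 and 80.9 CPM in control and 95.1, 109 and 95.0 CPM in cKO. The groups did not overlap, and the log2 fold change was 0.27 (SE 0.04, adjusted p = 0.000519). Per length, Thbs1 was 33.9 ± 0.687 times as abundant as Thbs2 in control and 45.8 ± 0.582 times in cKO (SD, n = 3), with no overlap between the groups. Thbs3 and Thbs4, the pentameric relatives, were at 3.69 and 3.30 CPM in control and rose by 0.64 and 0.49 on the log2 scale (adjusted p = 5.8e-05 and 0.00347).

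Tnc (ENSMUSG00000028364, chromosome 4, 63959785 to 64047015, minus strand) encodes tenascin-C, a hexameric protein that interferes with adhesion to fibronectin and appears transiently in injured muscle. It was measured at 603, 639 and 636 CPM in control and at 958, 1127 and 959.9 CPM in cKO. Every cKO sample was at least 319 CPM above the highest control sample. The rise from 626 ± 20.1 to 1015 ± 96.8 CPM (SD, n = 3) was 1.59-fold (log2 0.67, SE 0.05, 95% interval 0.57 to 0.78, adjusted p = 1.7e-07). Without cKO replicate 2 the log2 change was 0.59.

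Postn (ENSMUSG00000027750, chromosome 3, 54361109 to 54391037, plus strand) encodes periostin, which binds collagen and tenascin-C and is a known product of activated fibroblasts. Its values were 245, 255 and 250.2 CPM in control and 330.3, 356 and 329.7 CPM in cKO. Both groups were tight and clearly apart, with means of 250.0 ± 4.65 and 339 ± 14.9 CPM (SD, n = 3). The log2 fold change was 0.41 (SE 0.03, 95% interval 0.34 to 0.48, adjusted p = 4.3e-07), a rise of 33.2%.

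Sparc (ENSMUSG00000018593, chromosome 11, 55394500 to 55423183, minus strand) encodes osteonectin, a collagen-binding glycoprotein that loosens cell adhesion and assists collagen assembly. Control samples held 1319, 1330.1 and 1323 CPM and cKO samples 1662, 1771 and 1629 CPM. The control samples lay within 11.5 CPM of each other, and the lowest cKO sample was 298 CPM above them. Sparc rose from 1324 ± 5.80 to 1687 ± 74.6 CPM (SD, n = 3), a log2 fold change of 0.33 (SE 0.03, adjusted p = 4.1e-06).

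Spp1 (ENSMUSG00000029304, chromosome 5, 104435118 to 104441050, plus strand) encodes osteopontin, a phosphorylated ligand of integrins and CD44 that is secreted by myoblasts as well as by macrophages. It was the 1 member that fell. Its level was 1633, 1691 and 1689 CPM in control and 1229, 1380.4 and 1317 CPM in cKO. Every cKO sample lay at least 252 CPM below the lowest control sample, and cKO replicate 2, the highest cKO library for the other abundant members, was highest here too. The mean went from 1671 ± 32.9 to 1309 ± 75.9 CPM (SD, n = 3), a log2 fold change of -0.38 (SE 0.04, 95% interval -0.46 to -0.30, adjusted p = 4.2e-06). Without cKO replicate 2 it was -0.42. On the same strand, 18.75% of the exonic bases of Spp1 overlap Gm42793, which held 4.36 CPM in control against 4.84 CPM in cKO (log2 fold change 0.13, adjusted p = 0.443). How reads on the shared bases were counted is not given, and the part of this overlap in the values of Spp1 was not tested.

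Spp1 is 1 of 5 genes of a cluster of acidic, calcium-binding phosphoproteins on chromosome 5, all on the plus strand within 104170712 to 104441050. Dmp1, dentin matrix protein, was the other member of the cluster with a measurable level, and it fell as well, from 12.9 to 10.9 CPM (log2 fold change -0.26, adjusted p = 0.0114). The call of Dmp1 was lost without control replicate 2, control replicate 3 or cKO replicate 3 (adjusted p = 0.0683, 0.0614 and 0.0636), with log2 fold changes of -0.23, -0.24 and -0.22. Ibsp, bone sialoprotein, had 16 counts over the 3 control samples and 0 over the 3 cKO samples. Mepe had 1 count in control and 0 in cKO, and Dspp had 0 counts in both groups, so that neither could be compared.

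Of the 3 small leucine-rich proteoglycans among the members, Bgn was the most abundant. Bgn (ENSMUSG00000031375, chromosome X, 73483602 to 73495933, plus strand) encodes a core protein with glycosaminoglycan chains that binds collagen and can signal through Toll-like receptors when released. It stood at 346, 347 and 350.2 CPM in control and at 367, 466 and 397 CPM in cKO. The cKO samples were all higher but spread widely, from 17.1 CPM above the highest control sample to 116 CPM above it. The mean rose from 348 ± 2.13 to 410.1 ± 50.9 CPM (SD, n = 3), with a log2 fold change of 0.21 (SE 0.06, 95% interval 0.09 to 0.34, adjusted p = 0.0201). This call was lost under more alternatives than that of any other member. Without cKO replicate 2 the log2 change was 0.11 (adjusted p = 0.0384), without any 1 control sample the adjusted p was 0.0562 to 0.0735, and with DESeq2 it was 0.181.

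Dcn (ENSMUSG00000019929, chromosome 10, 97479609 to 97518143, plus strand) encodes decorin, which coats collagen fibrils and binds TGF-beta and myostatin. It had 58, 47 and 67 counts in control and 108, 125 and 104 counts in cKO. In CPM this was 1.03, 0.742 and 1.09 in control and 2.25, 2.11 and 1.86 in cKO, so that the groups were apart at a level near 1 CPM. The rise was 2.14-fold, the largest relative change of the 9 tested genes (log2 1.10, SE 0.16, 95% interval 0.76 to 1.44, adjusted p = 0.000187). Lum (ENSMUSG00000036446, chromosome 10, 97565128 to 97572703, plus strand), the keratan sulfate proteoglycan lumican, lies downstream of Dcn in the same orientation. It had 2, 0 and 1 counts in control and 5, 6 and 12 counts in cKO, too few to pass the filter. Summed over samples, 3 counts in control and 23 in cKO gave a ratio of 8.53 per counted read (exact 95% interval 2.58 to 44.4, for counting error only), and 3 samples against 3 cannot give a two-sided exact permutation p below 0.1. In an edgeR quasi-likelihood fit without the filter the adjusted p of Lum was 0.00684. That fit also lowered the adjusted p of the other members, that of Fn1 from 0.00714 to 8.5e-12, so no call of Lum is read from it. For Lum, DESeq2 gave an unadjusted p of 0.00879 with no adjusted value. Keratocan (Kera) and epiphycan (Epyc), the next genes of this cluster, had 3 or fewer counts in each group. Per length, Dcn amounted to 0.00286 ± 0.000550 of Bgn in control and 0.00535 ± 0.000920 of it in cKO (SD, n = 3).

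**Figure D2:**
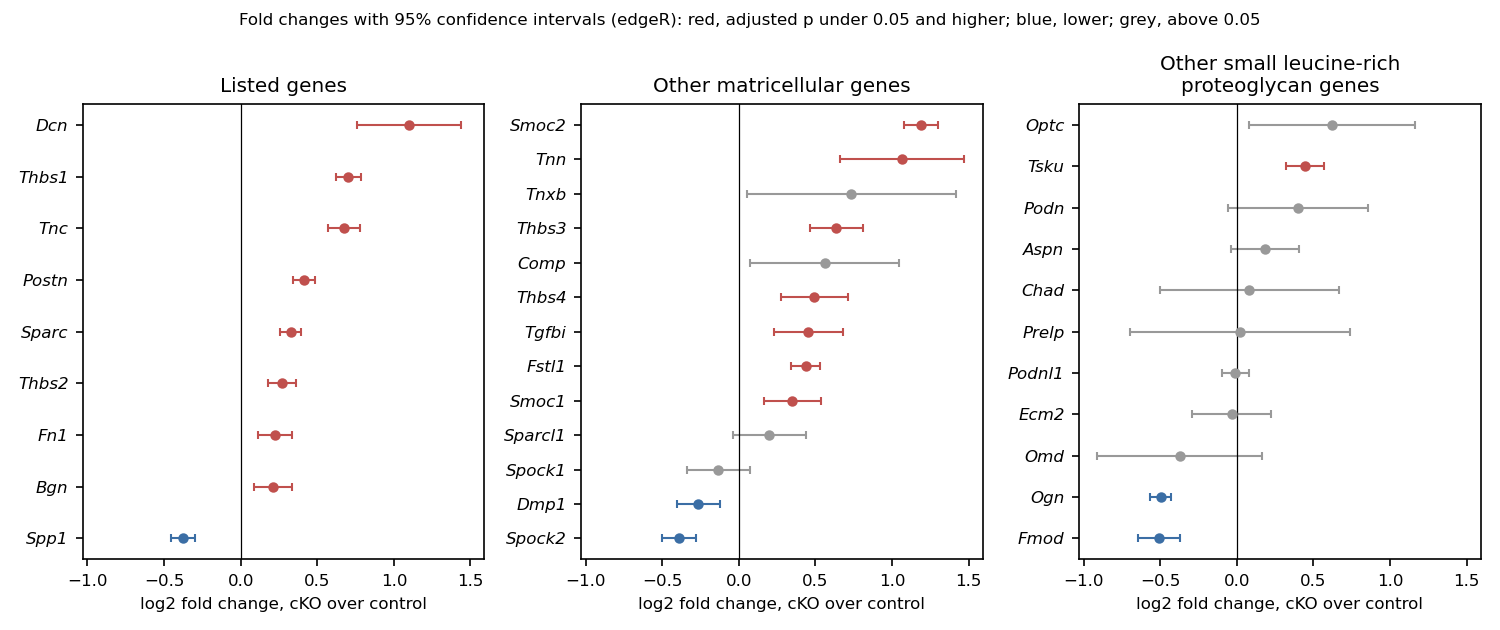
Log2 fold change of cKO over control (x axis) with 95% confidence intervals from edgeR, for the 9 tested members, 13 tested genes of other matricellular families and 11 other tested small leucine-rich proteoglycans (rows); red marks genes with an adjusted p under 0.05 that were higher in cKO, blue lower and grey all others. Spp1 is the blue point among the members, and Ogn (-0.50) and Fmod (-0.51) are the blue points in the right panel.

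The relatives of these genes, their receptors and the enzymes of chain synthesis were taken from lists. The counts of these lists stand beside 9.38% called higher and 6.46% called lower among all genes tested. Of 18 other matricellular genes, 13 were tested; 7 rose, 2 fell and 4 did not pass, with a median log2 fold change of 0.45. Smoc2, of the SPARC family, rose most, from 29.4 to 68.1 CPM (log2 1.19, adjusted p = 1.0e-09). Tnn, tenascin-N, rose from 0.676 to 1.44 CPM (log2 1.07, adjusted p = 0.00104). Tgfbi, a paralog of Postn, rose from 2.56 to 3.58 CPM (log2 0.45, adjusted p = 0.00754). Fstl1, the most abundant gene of the list, rose from 246 to 339 CPM (log2 0.44, adjusted p = 5.4e-06). Spock2, a testican, fell from 23.7 to 18.4 CPM (log2 -0.39, adjusted p = 7.4e-05). Dmp1, of the cluster of Spp1, was the other gene of the list that fell.

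Of 14 other small leucine-rich proteoglycans, 11 were tested; 1 rose, 2 fell and 8 did not pass, and the median log2 fold change was 0.02. The 1 of 11 that rose is close to the 9.38% of all genes tested that were called higher, and nothing is read from these counts about the list. Tsku, tsukushi, rose from 13.4 to 18.5 CPM (log2 0.44, adjusted p = 6.7e-05). Ogn, osteoglycin or mimecan, held 212, 209 and 210 CPM in control and 158, 149 and 149 CPM in cKO, which is -0.50 on the log2 scale (SE 0.03, adjusted p = 4.9e-08). Ogn fell in all cKO samples to a similar level. Its genomic neighbours on chromosome 13, Ecm2, Aspn and Omd, had log2 fold changes of -0.03, 0.18 and -0.37 (adjusted p = 0.901, 0.284 and 0.382). The 95% interval of Omd, -0.91 to 0.16, includes the value of Ogn, and differences between these genes were not tested. Fmod, fibromodulin, which binds the same region of collagen as lumican, had 19.5, 21.8 and 21.5 CPM in control and fell to 13.9, 16.6 and 14.4 CPM in cKO (log2 -0.51, adjusted p = 5.2e-05). Per length, Ogn was 1.45, 1.43 and 1.43 times as abundant as Bgn in the control samples and 1.02, 0.758 and 0.892 times in the cKO samples.

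Receptors that bind these proteins were measured in the same libraries. Of 17 receptor genes, 9 rose, 1 fell and 7 did not pass, with a median log2 fold change of 0.29. The scavenger receptors changed most: Stab1, which takes up SPARC, rose from 6.48 to 15.1 CPM (log2 1.20, adjusted p = 2.0e-07). Cd36, the thrombospondin receptor, rose from 19.2 to 44.1 CPM (log2 1.18, adjusted p = 2.3e-10). The tenascin-C and osteopontin receptor subunit Itga9 rose from 6.79 to 10.5 CPM (log2 0.60, adjusted p = 5.2e-06). Itga5, of the fibronectin receptor, rose from 70.7 to 105 CPM (log2 0.55, adjusted p = 1.0e-06). Cd44, a receptor of osteopontin, rose from 392 to 524 CPM (log2 0.40, adjusted p = 1.2e-06). Stab1 and Cd36 are also expressed by macrophages and endothelial cells, whose markers are given below. Itgb1, the most abundant receptor gene at 1778 CPM in control, changed by 0.03 on the log2 scale (adjusted p = 0.502). Sdc1, syndecan-1, fell by 0.13 on the log2 scale (adjusted p = 0.0121); without control replicate 2 this call was lost (adjusted p = 0.0778).

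Enzymes that build the chondroitin and dermatan sulfate chains of Bgn and Dcn were followed too. Of 22 tested genes, 7 rose and 15 did not pass, and the median log2 fold change was 0.07. At the start of the chain, Xylt1, a xylosyltransferase, rose from 1.35 to 2.61 CPM (log2 0.93, adjusted p = 9.2e-05), while its more abundant paralog Xylt2 changed by 0.03 (adjusted p = 0.789). Csgalnact1, which adds the first N-acetylgalactosamine, rose from 6.13 to 14.4 CPM (log2 1.21, adjusted p = 2.6e-08), while Csgalnact2 changed by 0.05 (adjusted p = 0.447). Among sulfotransferases, Chst12 rose by 0.55 (adjusted p = 8.5e-06) and Chst7 by 0.41 (adjusted p = 0.0321) on the log2 scale. The call of Chst7 was lost with DESeq2 (adjusted p = 0.108) and without control replicate 2, control replicate 3, cKO replicate 2 or cKO replicate 3 (adjusted p = 0.0814 to 0.145). Chsy3, a chondroitin synthase, rose by 0.29 on the log2 scale (adjusted p = 0.00381). Chsy1, the most abundant gene of the list at 89.7 CPM in control, changed by 0.03 (adjusted p = 0.572).

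**Figure D3:**
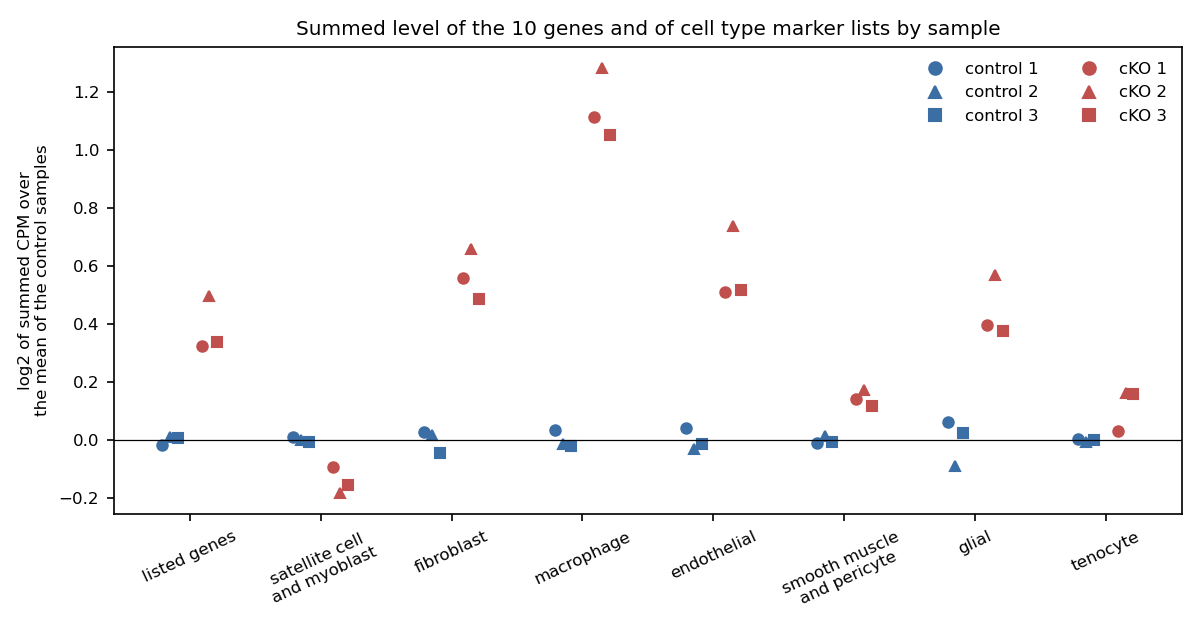
Log2 of the summed CPM of the 10 genes and of marker lists of 7 cell types (x axis) over the mean of the control samples (y axis), in each control (blue) and cKO (red) sample, with replicate number by shape. The 10 genes lie at 0.32 to 0.49 in cKO, fibroblast markers at 0.49 to 0.66 and macrophage markers at 1.05 to 1.28, while satellite cell and myoblast markers lie below 0.

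The summed level of each marker list of another cell type was higher in cKO. Which cells held this RNA was not measured, and the part of other cell types in the changes of the 10 genes was not tested. The counts of calls stand beside 9.38% called higher and 6.46% called lower among all genes tested. Of 16 fibroblast marker genes, 12 were tested, of which 7 rose and 5 did not pass (median log2 fold change 0.76); their summed level was 202 to 212 CPM in control and 292 to 329 CPM in cKO. Mfap5 (log2 1.37), Hic1 (1.21), Osr1 (1.21), Pdgfra (1.15) and Thy1 (1.06) rose most, and Gsn, the most abundant of them, rose from 135 to 155 CPM (log2 0.17). The fibroblast genes Ly6c1, Dpt, Pi16, Clec3b, Scara5, Dpp4 and Tcf21 stayed under 1 CPM in every sample. Ly6a, which encodes the SCA1 antigen removed by the sort, had 3.04 CPM in control against 3.66 CPM in cKO (adjusted p = 0.115). Of 4 genes listed as tenocyte markers, 1 rose, Egr1 (its call was lost without control replicate 2, control replicate 3, cKO replicate 2 or cKO replicate 3). The sum of this list was 172 to 173 CPM in control and 176 to 193 CPM in cKO, with Tnmd under 1 CPM, and nothing is read from it about tenocytes. All 15 macrophage genes rose (median 1.06), from a sum of 152 to 158 CPM to 319 to 374 CPM. Lyz2, the most abundant of them, rose from 80.4 to 186 CPM, and Ptprc, which encodes the CD45 antigen of the sort, from 1.43 to 2.83 CPM. Of 13 endothelial genes, 6 rose and 7 did not pass (37.7 to 39.7 CPM in control, 54.9 to 64.2 CPM in cKO, with Tek, Tie1 and Cldn5 under 1 CPM in every sample). The calls of Pecam1 and Esam were lost with DESeq2 (adjusted p = 0.157 and 0.172) and with the replicate block (0.0824 and 0.0600). Without cKO replicate 2, the calls of Pecam1, Cdh5 and Esam were lost (0.152, 0.177 and 0.0969). They were also lost without control replicate 2 or control replicate 3 (0.0653 to 0.184). Of 9 tested smooth muscle and pericyte genes, 7 rose and 2 fell (3179 to 3230.3 CPM in control, 3471 to 3603 CPM in cKO). Acta2 lost its call with the likelihood-ratio test (adjusted p = 0.0595), with the replicate block (0.0771) and without each control sample or cKO replicate 3 (0.0669 to 0.139). Tagln lost it without control replicate 2 or control replicate 3 (0.0643 and 0.0575), and Abcc9 without control replicate 3 (0.0525). Of 5 tested glial genes 1 rose, Ngfr (26.2 to 29.2 CPM in control, 36.2 to 41.4 CPM in cKO). Satellite cell and myoblast genes moved the other way: 10 of 12 fell and 2 did not pass, with a median of -0.17 and sums of 9606 to 9724 CPM in control and 8512 to 9069 CPM in cKO.

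Replicate 2 of the cKO group was the highest cKO sample for 8 of the 9 tested members, whereas it was highest within cKO for 39.5% of all genes tested. The exception was Dcn, highest in cKO replicate 1. The same library had the highest summed fibroblast, macrophage, endothelial and glial markers and the lowest satellite cell and myoblast markers. Without it, the 8 rises and the fall of Spp1 were all still called. Fn1 and Bgn then rose by 0.14 and 0.11 in place of 0.23 and 0.21 on the log2 scale, while Thbs1 (0.65 in place of 0.70), Postn (0.38 in place of 0.41) and Sparc (0.29 in place of 0.33) moved little.

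**Figure D4:**
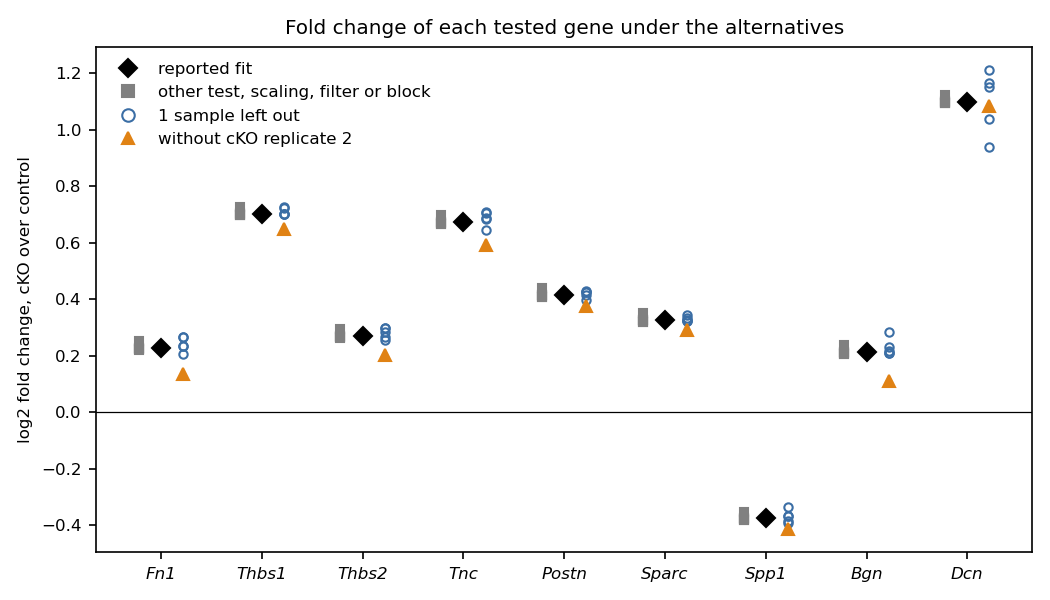
Log2 fold change of cKO over control (y axis) for each of the 9 tested genes (x axis) in the reported fit (black diamond), with another test, scaling, filter or replicate block (grey squares), and with 1 sample left out (blue circles; orange triangle without cKO replicate 2). No symbol crosses 0, and the orange triangle is the lowest value for every member except Dcn.

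The genes whose pattern over the 6 samples was most like that of each member were looked up by the root mean square distance of centred log2 CPM, among 10481 tested genes with a mean of at least 10 CPM. The nearest gene was Crim1 for Thbs1 (distance 0.0231) and Fbn1, fibrillin-1, for Tnc (0.0223). The genes nearest to Fn1 were Thbs2 (0.0341), a member itself, and Fam171a1 (0.0372). Near Thbs2 stood Jag1 (0.0209) and Cap1 (0.0221), and near Bgn stood Heg1 (0.0287) and the collagen gene Col12a1 (0.0332). Postn was closest to L3mbtl3 (0.0176) and Cdr2l (0.0187), and Sparc to Zfp37 (0.0168) and Fam129a (0.0175). For Spp1 the nearest genes were Sp7, osterix (0.0279), and Cxcr4 (0.0346), which had log2 fold changes of -0.35 and -0.33. For Dcn the nearest genes were Fxyd5 (0.134) and S1pr3 (0.142). Its mean of 1.51 CPM lay below the level required of the genes searched, and counting error adds to its distances. They therefore cannot be compared with those of the other members.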

How the data were processed

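RNA was sequenced from 6 samples (3 control, 3 cKO), grouped by the genotype in the labels. Libraries were made from 400 ng of ribosomal RNA-depleted total RNA with a stranded kit and read at 1 end for 75 bp. The authors aligned reads to mm10 with Bowtie2 2.3.4.2, which cannot split a read at an intron, and deposited raw counts per gene from featureCounts 1.6.3; the strand setting and the treatment of reads matching several genes are not given in the sources used here. Reads over exon junctions can be lost, which lowers per-length levels of genes with many short exons such as Fn1. A deposited table of size-factor-scaled counts and the authors' own comparison (base mean, fold change, test statistic, p-values; DESeq2 2.11.40.6) were not used.

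All 55536 gene identifiers matched GENCODE M21. Counts were filtered with filterByExpr, scaled by TMM and tested with edgeR 4.0.16 (glmQLFit, glmQLFTest, with genotype alone in the model) under R 4.3.3, with Benjamini-Hochberg adjustment across 22404 genes and a threshold of 0.05. The script was tested on simulated counts. CPM and per-length levels use total counts and the union of GENCODE exons. Overlapping antisense genes cover 2.50% of the exonic bases of Fn1, 2.26% of Tnc and 3.42% of Thbs1, and without the strand setting such reads cannot be told apart. Chi-square per gene was 2.03 between control replicates 2 and 3 and 5.12 to 9.29 between the other samples of a group. No pair held identical counts, but technical repeats of the same preparation cannot be told apart this way.

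The members and lists were chosen with earlier results of these data known. Named beside the members were genes of each list past the threshold (up to 5 in each direction, largest change first), the most abundant gene of a list, neighbours in a gene cluster and the 2 genes of most similar pattern (1 for Thbs1 and Tnc, where the other is not reported here); further genes named from the lists (Xylt2, Csgalnact2, Ly6a, Ptprc, the satellite cell markers given as a check, and the markers under 1 CPM) were chosen after their values were seen. For marker lists other than fibroblasts, counts and sums mostly stand in place of names. Alternatives were DESeq2 1.42.0, the likelihood-ratio test, RLE and total-count scaling, 2 other filters, an adjusted p under 0.01, a replicate block and leaving out each sample. Summaries used Python 3.11.15 (pandas 2.3.3, scipy 1.17.1, numpy 2.4.6) and plots matplotlib 3.10.9.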

Additional observations from a re-analysis of the deposited data

How the results depend on the processing

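Over 14 alternatives for each of the 9 tested members, 120 of 126 fold changes kept direction and side of the threshold and 0 reversed; the 6 others were Bgn with DESeq2, without each control sample and at an adjusted p under 0.01, and Fn1 with DESeq2, and the cause was not tested. Members higher in cKO numbered 8 in the reported fit, 6 with DESeq2 and 9 without the filter (Lum included), and 1 was lower throughout. The fit without the filter lowered the adjusted p of every tested member, so the call of Lum is not relied on. Hira was -0.43 (0.0237) and so did not pass an adjusted p of 0.01; with 1 sample left out it ranged from -0.52 to -0.29 and lost its call only without control replicate 1 (-0.34). With 1 sample left out, genes lower in cKO ranged from 917 to 1673, other matricellular genes that fell from 1 to 2, receptors that fell from 0 to 1, chain synthesis genes that fell from 0 to 1, and other proteoglycans that rose from 2 to 7 and fell from 1 to 2. At an adjusted p under 0.01, fewer calls are made by construction: 732 genes were lower, 1 other matricellular gene and 0 receptors fell, and 2 other proteoglycans rose. With the replicate number as a block, 1901 genes were higher and 1251 lower, and 8 members were higher and 1 lower. Deviations from the group means correlated at -0.0145 to -0.0045 for samples with the same number and at -0.0074 to 0.0204 for others. These values show no pairing by number over all genes, but they cannot decide whether samples were processed in pairs. Total-count scaling moved the median of all genes to 0.023. Counting error limits Dcn, Lum and the genes under about 1 CPM.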

Other observations

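Proteoglycans outside the leucine-rich family, which were in no comparison of the report, went both ways. Of 14 tested genes, 5 rose, 2 fell and 7 did not pass in edgeR's quasi-likelihood test, with a median log2 fold change of 0.13 against -0.0011 for all genes tested. Among all genes tested, 9.38% were called higher and 6.46% lower. Gpc3, glypican-3, rose from 1.05 to 1.71 CPM (log2 0.68, adjusted p = 0.00394), and Gpc2 from 5.69 to 7.47 CPM (log2 0.37, adjusted p = 0.00281). Srgn, serglycin, a proteoglycan of blood cell granules, rose from 0.922 to 1.40 CPM (log2 0.59, adjusted p = 0.0423). Cspg4, known as NG2, rose from 138 to 155 CPM (log2 0.15, adjusted p = 0.0456), and Vcan, versican, from 181 to 203 CPM (log2 0.14, adjusted p = 0.0114). Among the heparan sulfate proteoglycans of the cell surface, Sdc3, syndecan-3, fell by 0.19 (adjusted p = 0.00984) and Gpc1, the most abundant gene of the list, by 0.17 (adjusted p = 0.00822) on the log2 scale. Gpc1 held 549 CPM in control and 496 CPM in cKO. The calls of Vcan and Gpc1 were lost without control replicate 2 (adjusted p = 0.0623 and 0.0546), that of Vcan also without control replicate 3 (0.0596). Cspg4 lost its call with RLE scaling (adjusted p = 0.0518) and without any 1 sample except cKO replicate 1 (0.0789 to 0.185). Srgn lost it with DESeq2 (adjusted p = 0.120) and without control replicate 1, control replicate 3, cKO replicate 2 or cKO replicate 3 (0.0632 to 0.180). The counts of rises depended on single libraries, with 2 rises without control replicate 3 and 3 without control replicate 2, cKO replicate 2 or cKO replicate 3.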
